A study of Mus musculus with 22 samples.

Results

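The genes described here are 10 members of the Notch pathway that act around or below the receptor: the HES/HEY transcription factors Hey1, Hey2, Heyl, Hes1 and Hes6, the feedback regulator Nrarp, the DNA-binding factor Rbpj, and the fringe glycosyltransferases Lfng, Mfng and Rfng. They were taken by gene symbol from a table of raw read counts that lists 24454 genes, and all 10 are in it. Bulk RNA-seq by the Smart-seq2 protocol, which copies polyadenylated RNA from very few cells, gave 22 libraries of 25 cells each. The cells were VE-Cadherin-positive, untreated, and sorted from the aorta-gonad-mesonephros (AGM) region of C57BL/6 mouse embryos at E9.5, E10 or E11, the tissue and time in which haematopoietic stem and progenitor cells (HSPCs) form from endothelium.

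Sorting on CD44 and Kit made 4 populations. The CD44Neg libraries, labelled endothelial cells, number 10, of which 4 are from E9.5, 3 from E10 and 3 from E11. The CD44LowKitNeg libraries, labelled hemogenic endothelial cells, number 6, of which 1 is from E9.5, 2 are from E10 and 3 from E11. The CD44LowKitPos libraries, labelled pre-HSPCs, number 3 (1 at E9.5 and 2 at E10), and the 3 CD44High libraries, labelled HSPCs, are all from E11. The last pair of populations share no stage, so in comparing them population and stage cannot be told apart.

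In Notch signalling, a ligand on one cell releases the intracellular part of a Notch receptor in its neighbour, and this fragment joins RBPJ on DNA and turns on genes such as those of the HES/HEY family, which encode repressors. NRARP is made in response to the signal and limits it by destabilising the intracellular fragment. Fringe enzymes add sugars to the receptor and change which ligands it answers to. In the embryo, Notch signalling is known for specifying arterial endothelium and is needed for the first blood stem cells to form in the aorta.

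Library totals ran from 3912350 to 8657546 counts, and 10825 to 12627 genes had at least 1 count. The ribosomal gene Rn45s took 1.92% to 23.9% of the counts. Where a gene had no counts, its true level may be as high as that of 3 counts. This floor lay between 0.348 and 0.813 CPM in the libraries, and it covers counting error only. CPM are counts scaled to the library size with TMM factors. All 20 pairs of same-group, same-stage libraries differed by more than sampling noise, with a chi-square per degree of freedom of 17 to 85.2. The labels do not say whether libraries came from separate embryos, so p-values measure the spread between sorted libraries, which may be technical.

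The sorted cells were compared with marker lists of 8 genes each. Summed endothelial markers reached 3520 to 5920 CPM in CD44Neg, 3720 to 8660 CPM in CD44LowKitNeg and 765 to 1850 CPM in CD44LowKitPos, but 14.1 to 78.7 CPM in CD44High, where Cdh5, the gene of VE-Cadherin itself, was at 0. Summed blood markers were 0 to 35.6 CPM, 8.36 to 270 CPM, 411 to 807 CPM and 723 to 888 CPM in the same order. All 8 macrophage markers had counts in CD44High, where they summed to 1680, 4560 and 3990 CPM, against at most 52.9 CPM in any library of the other populations, in which C1qa, C1qb, C1qc and Adgre1 were at 0. The libraries labelled HSPC thus also hold RNA of macrophage genes. Summed erythroid markers were 58.8 to 281 CPM in CD44High and at most 61.3 CPM elsewhere. In bulk samples like these, fewer cells of a type and less RNA per cell cannot be told apart.

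Of the 10 members, 6 have a promoter entry in the RefSeq table for GRCm38.p6, the same build as the mm10 coordinates of the counted genes. The upstream sequences of 3 are shown because they hold the differing arrangements of RBPJ and HES/HEY recognition letters. RBPJ binds sequences around the core TGGGAA, which reads TTCCCA on the other strand, and HES/HEY proteins bind E boxes such as CACGTG. Among 32851 mouse promoter entries, 21.6% hold TGGGAA within the 250 bases before the start, 5.42% hold the longer GTGGGAA, of which TGGGAA is part, and 6.02% hold CACGTG, counted on both strands. Capitals mark the TGGGAA core. Bases that lie within the annotated gene were left off the end, 18 for Hey2 and 21 for Lfng. Distances are counted to the RefSeq start and so include the bases left off.
Hey2, chr10:30842802-30843033, minus strand: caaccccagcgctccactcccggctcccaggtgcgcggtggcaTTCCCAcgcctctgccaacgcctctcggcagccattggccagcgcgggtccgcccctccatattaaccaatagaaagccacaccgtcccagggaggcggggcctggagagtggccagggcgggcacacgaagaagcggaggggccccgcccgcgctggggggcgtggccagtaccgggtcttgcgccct
Nrarp, chr2:25180508-25180757, plus strand: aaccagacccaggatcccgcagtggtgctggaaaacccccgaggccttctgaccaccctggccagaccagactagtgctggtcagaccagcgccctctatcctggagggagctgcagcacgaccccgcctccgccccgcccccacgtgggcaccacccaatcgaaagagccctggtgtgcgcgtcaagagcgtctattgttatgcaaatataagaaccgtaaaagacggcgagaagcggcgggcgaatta
Lfng, chr5:140607091-140607319, plus strand: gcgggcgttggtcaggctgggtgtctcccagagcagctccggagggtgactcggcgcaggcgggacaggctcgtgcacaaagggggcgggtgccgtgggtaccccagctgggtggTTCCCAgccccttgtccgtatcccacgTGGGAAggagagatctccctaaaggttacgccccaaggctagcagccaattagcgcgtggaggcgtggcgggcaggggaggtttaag
The Hey2 sequence holds 1 core, 207 bases before the start and part of GTGGGAA on the minus side. The Lfng sequence holds 2 cores, 135 and 108 bases before the start on opposite strands, and the second is also part of GTGGGAA and shares 2 bases with a CACGTG. The Nrarp sequence has no core and 1 CACGTG, 108 bases before the start. Of the other promoters searched, those of Hes6 and Rfng hold neither TGGGAA nor CACGTG, and both entries of Rbpj hold TGGGAA (2 and 1 matches) without CACGTG. These are matches of letters in a window and not measured binding.

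Levels were first set side by side per length of exon, because longer transcripts give more fragments. In CD44Neg, Hes1 ranked highest of the members at 36.5 ± 21.9 CPM per kb (SD, n = 10), with Mfng at 32.6 ± 14.8 and Hey1 at 29.2 ± 13.3 CPM per kb, and these did not differ beyond their spread. In CD44LowKitNeg, Hey1 stood at 102 ± 12.3 CPM per kb (SD, n = 6), above Hes1 at 43.3 ± 14.1 and Hey2 at 36.7 ± 16 CPM per kb, and the lowest Hey1 library (92.1) was above the highest Hes1 library (58.4). In CD44LowKitPos the order was led by Mfng at 38.5 ± 15.4 CPM per kb and Hes6 at 34.0 ± 14.3 CPM per kb (SD, n = 3), which overlapped. In CD44High, Hes6 led at 25.9 ± 14.3 CPM per kb, and Hey1 and Hey2 were the lowest members at 0.586 ± 0.945 and 0.44 ± 0.761 CPM per kb (SD, n = 3). Hey1 thus ranked first among the members in CD44LowKitNeg and ninth in CD44High. The length of Rbpj, 12.75 kb of exons over all its annotated transcripts, is the longest of the members, which lowers its value on this scale.

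**Figure D1:**
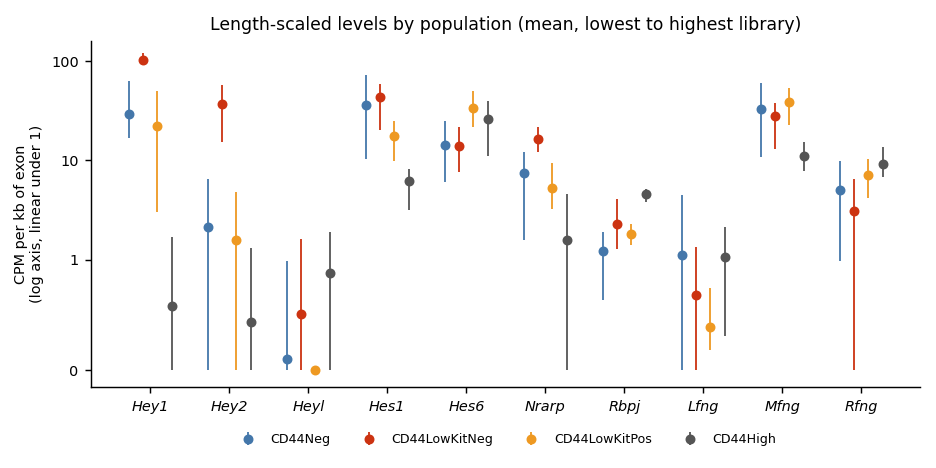
Mean CPM per kb of exon for the 10 members in each population, with lines from the lowest to the highest library (10 CD44Neg, 6 CD44LowKitNeg, 3 CD44LowKitPos and 3 CD44High libraries), on a log axis that is linear under 1. Hey1 and Hey2 are highest in CD44LowKitNeg (102 and 36.7) and fall under 1 in CD44High, whereas Hes6 stays between 13.9 and 34.0 in every population.

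The first comparison asked how the 2 endothelial populations differ. Hey1 and Hey2, both arterial HES/HEY repressors, were higher in CD44LowKitNeg than in CD44Neg, by 3.52-fold and 17.1-fold, and in both genes every CD44LowKitNeg library lay above every CD44Neg library. Of the 9 members that passed the filter on low counts, these 2 were called at an edgeR adjusted p under 0.01, both higher, while 4.94% of the 11022 genes tested were called higher, 5.23% lower and 10.2% in either direction. Nrarp also separated the populations without overlap but was not called. Hes1, Hes6, Rbpj and the 3 fringe genes overlapped between the populations, and Heyl was too low to be tested.

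Hey1 (chr3:8663359-8667256, 3 exonic blocks) ranged from 55.1 to 204 CPM in CD44Neg, with a median of 83.1 CPM. In CD44LowKitNeg it ranged from 301 to 391 CPM, with a median of 315 CPM. The CD44Neg libraries therefore all lay below the CD44LowKitNeg libraries, the highest of them, replicate 3 at E11, included. The difference was 1.81 on the log2 scale (SE 0.228, edgeR adjusted p = 2.32e-05), and it was called in each of 16 fits that left out 1 library.

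Hey2 (chr10:30832359-30842801, 4 exonic blocks) ranged from 0 to 29.6 CPM in CD44Neg, with a median of 7.51 CPM. In CD44LowKitNeg it ranged from 71.0 to 262 CPM, with a median of 160 CPM. No library of one population reached those of the other. The log2 difference was 4.10 (SE 0.540, edgeR adjusted p = 3.57e-05), and it too was called in all 16 fits without 1 library.

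Nrarp (chr2:25180758-25183339, a single exon) ranged from 4.09 to 31.2 CPM in CD44Neg, with a median of 20.8 CPM. In CD44LowKitNeg it ranged from 31.6 to 55.7 CPM, with a median of 42.3 CPM. The populations met but did not overlap, and the log2 difference of 1.14 (SE 0.380) did not pass the threshold (edgeR adjusted p = 0.0386). Of 7 other settings, limma voom called it (log2 difference 1.39, adjusted p = 0.00929). With Hey1 and Hey2, Nrarp makes 3 members whose CD44LowKitNeg libraries all lay above, where 2.5% of all genes tested did so. An antisense gene, Gm38287, covers 79.4% of the bases of the Nrarp exon, and the strand setting of the counting is not given, so reads of the pair cannot be told apart. No other member shares exonic bases with another annotated gene.

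Rbpj, which encodes the factor through which the Notch signal reaches DNA, ranged from 8.11 to 24.1 CPM in CD44Neg (median 16.9) and from 16.4 to 51.9 CPM in CD44LowKitNeg (median 28.4). These ranges overlapped, and the log2 difference of 0.89 (SE 0.325) gave an edgeR adjusted p of 0.0596. Hes1, a widely used Notch target, ranged from 21.2 to 148 CPM in CD44Neg (median 59.6) and from 41.5 to 119 CPM in CD44LowKitNeg (median 91.4). Its log2 difference was 0.25 (SE 0.357, edgeR adjusted p = 0.688). Hes1 thus did not follow Hey1 and Hey2, and its spread within CD44Neg was wide at each stage. Hes6, which antagonises HES1, was at 25.8 ± 10.2 CPM in CD44Neg (SD, n = 10) and 25.2 ± 8.89 CPM in CD44LowKitNeg (SD, n = 6), with an edgeR adjusted p of 0.974.

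The fringe genes did not separate the 2 endothelial populations. Mfng was at 92.5 ± 42.1 CPM in CD44Neg (SD, n = 10) and 79.9 ± 30.9 CPM in CD44LowKitNeg (SD, n = 6). Rfng was at 12.5 ± 7.14 and 7.73 ± 5.32 CPM, and Lfng at 2.77 ± 3.37 and 1.71 ± 1.38 CPM. The edgeR adjusted p-values of the 3 were 0.718, 0.545 and 0.713. Heyl had counts in 1 of 10 CD44Neg libraries (26 counts) and in 2 of 6 CD44LowKitNeg libraries (64 and 47 counts), all at E11.

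Among 65 other genes of the Notch pathway, 51 passed the filter in this comparison, 5 were called higher and 0 lower, where 4.94% of all genes were called higher and 5.23% lower. At an unadjusted edgeR p under 0.05, 14 were higher and 1 was lower, where 32.6% of all genes passed. Jag1, which encodes a Notch ligand, had the largest difference at 3.19 on the log2 scale (SE 0.286, edgeR adjusted p = 8.04e-07), from 33.6 to 175 CPM in CD44Neg and from 496 to 1070 CPM in CD44LowKitNeg. Of the enzymes that cut the receptor, Furin was higher by 1.68 (SE 0.338, edgeR adjusted p = 0.00149) and Adam10 by 1.13 (SE 0.173, edgeR adjusted p = 0.000161). The co-repressor genes Hdac2 and Ncor1 were higher by 0.83 (SE 0.175) and 0.82 (SE 0.213) on the same scale. None of the 4 receptor genes was called. Notch3 came nearest, at 2.63 (SE 0.724, edgeR adjusted p = 0.0134) with ranges that overlapped. The edgeR adjusted p-values of Notch1, Notch2 and Notch4 were 0.256, 0.922 and 0.112. Beside these differences, the summed mural markers were 0.464 to 134 CPM in CD44Neg and 112 to 356 CPM in CD44LowKitNeg, and the summed neural markers 31.8 to 117 CPM and 6.98 to 22.9 CPM. The erythroid markers summed to 2.61 to 23.7 CPM and 21.5 to 61.3 CPM, and the mesenchyme markers to 0 to 36.7 CPM and 2.16 to 85.6 CPM, in the same order. Their part in the result was not tested.

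**Figure D2:**
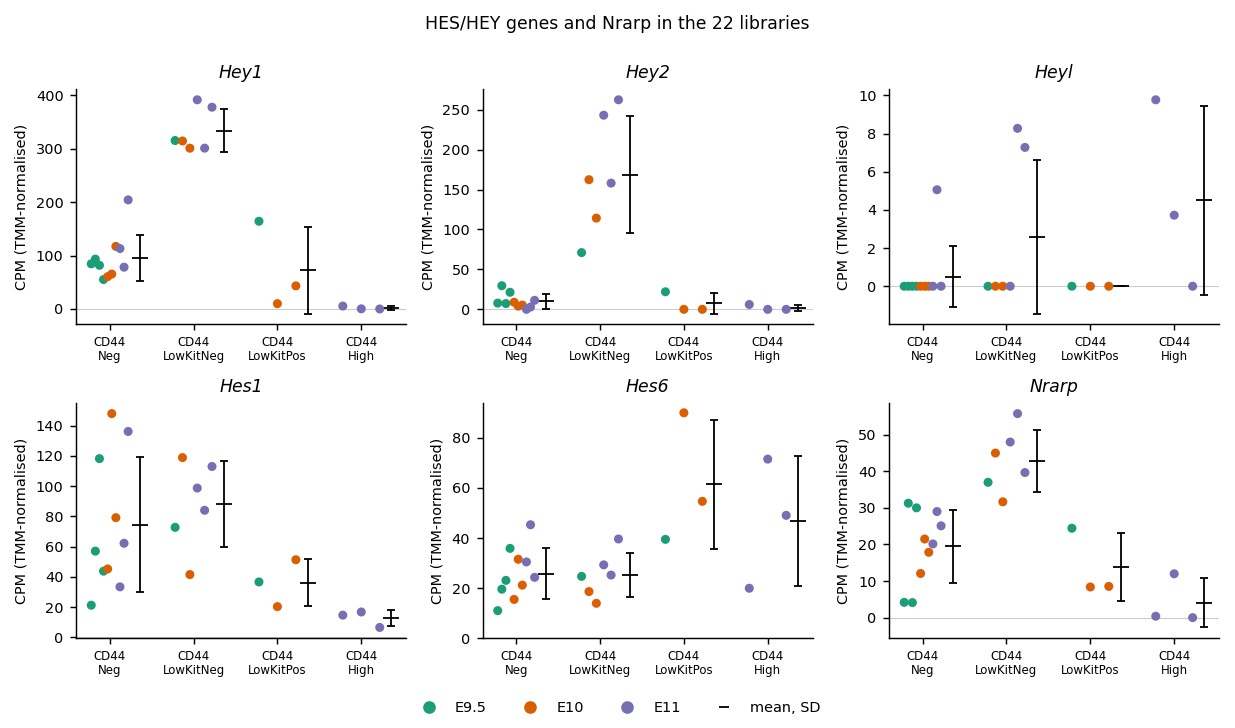
TMM-normalised CPM (vertical axis, one scale for each gene) of the HES/HEY genes and Nrarp in the 22 libraries by population. Points are libraries coloured by embryonic day, and the black marks give the mean and SD. The 6 CD44LowKitNeg libraries lie above all 10 CD44Neg libraries for Hey1 (301 CPM and more against at most 204), Hey2 (71.0 against 29.6) and Nrarp (31.6 against 31.2), but not for Hes1 or Hes6.

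The same populations were then compared within a stage. At E11, with 3 libraries of each, 1 member was called: Hey2, higher by 5.48 on the log2 scale (SE 1.12, edgeR adjusted p = 0.00459), where 3.64% of 12949 genes were called and 0.973% were called higher. Its CD44Neg libraries at E11 were at 0, 2.92 and 11.3 CPM, and its CD44LowKitNeg libraries at 243, 158 and 262 CPM. The groups lie far apart, yet the call was lost when any of 4 libraries was left out: CD44Neg replicate 1 (edgeR adjusted p = 0.0189) or 2 (0.032), or CD44LowKitNeg replicate 11 (0.0113) or 13 (0.0155). Without CD44Neg replicate 3 the call held, at 7.14 on the log2 scale. Hey1 and Nrarp also lay above without overlap at E11, as did 13.3% of all genes, and were not called, with edgeR adjusted p-values of 0.15 and 0.633.

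At E11 the 3 fringe genes all lay below in CD44LowKitNeg, where 16.9% of all genes tested did so. Mfng was at 172, 129 and 129 CPM in CD44Neg and 107, 45.0 and 90.2 CPM in CD44LowKitNeg. Rfng was at 14.8, 14.8 and 9.44 CPM against 8.46, 6.20 and 0 CPM. Lfng was at 11.4, 4.47 and 3.40 CPM against 1.48, 3.36 and 0 CPM. None passed the threshold, and the edgeR adjusted p-values were 0.167 for Mfng, 0.462 for Rfng and 0.507 for Lfng. Those of Rbpj, Heyl, Hes1 and Hes6 ranged from 0.235 to 0.974.

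At E10, with 2 CD44LowKitNeg and 3 CD44Neg libraries, no member was called, and neither were most genes (31 of 12949, or 0.239%). By an unadjusted edgeR p under 0.05, 20% of all genes passed, and Hey1 (p = 0.00779) and Hey2 (p = 0.000704) were among them. Hey2 was at 8.84, 4.02 and 5.35 CPM in CD44Neg and 162 and 114 CPM in CD44LowKitNeg, a log2 difference of 4.5 (SE 1.11, edgeR adjusted p = 0.038). Hey1 was at 60.5, 65.3 and 117 CPM against 314 and 301 CPM, a log2 difference of 1.93 (SE 0.649, edgeR adjusted p = 0.109). Hes1, Hes6, Nrarp, Rbpj and the 3 fringe genes had edgeR adjusted p-values from 0.588 to 1, and Heyl had no counts. The difference in Hey1 and Hey2 was thus in the same direction at both stages. The test of E11 against E10 for the difference itself called no member (0.00772% of all genes; 10% at an unadjusted p under 0.05). For Hey2 it was 0.98 (SE 1.43, edgeR adjusted p = 0.928) and for Hey1 −0.49 (SE 0.874, edgeR adjusted p = 0.961), and for Hes1, Hes6, Nrarp, Rbpj and the 3 fringe genes the edgeR adjusted p-values ranged from 0.581 to 1. Heyl was not tested.

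The stage means of Hey2 went opposite ways in CD44Neg and CD44LowKitNeg, as a description. Stage was not tested within CD44LowKitNeg, and in CD44Neg Hey2 was not called for E11 against E9.5 (edgeR adjusted p = 0.446). In CD44Neg they were 16.5 ± 10.9 CPM at E9.5 (SD, n = 4), 6.07 ± 2.49 CPM at E10 (n = 3) and 4.74 ± 5.87 CPM at E11 (n = 3). In CD44LowKitNeg the single E9.5 library was at 71.0 CPM, and the means were 138 ± 34.0 CPM at E10 (SD, n = 2) and 221 ± 55.5 CPM at E11 (n = 3). The summed markers of CD44LowKitNeg also differed by stage. Blood markers were at 114 CPM at E9.5, 270 and 116 CPM at E10, and 12.1, 11.8 and 8.36 CPM at E11. Endothelial markers were at 3730 CPM, 3720 and 5000 CPM, and 8660, 7620 and 7220 CPM in the same order. Their part in the result was not tested. Hey1 stayed between 308 and 357 CPM by stage mean in CD44LowKitNeg. In CD44Neg, E11 against E9.5 called no member and 0.0463% of all genes, with 13.2% at an unadjusted edgeR p under 0.05. The descriptions in the labels end in a number that all libraries of one stage share and that differs between stages. The labels do not say what it marks, and stage and what it marks cannot be told apart. The titles of all CD44LowKitPos and CD44High libraries, and of no others, carry the letters KG, whose meaning is not given. What KG marks and population cannot be told apart where these are compared with CD44Neg or CD44LowKitNeg.

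The 3 members that lay higher in every E11 than in every E9.5 library of CD44Neg, as did 8.93% of all genes, were Mfng, Rbpj and Lfng. Mfng was at 79.6, 60.1, 30.7 and 51.8 CPM at E9.5 and 172, 129 and 129 CPM at E11, a log2 difference of 1.36 (SE 0.329, edgeR adjusted p = 0.06). DESeq2 called it with an adjusted p of 0.00352, and an edgeR fit of only the libraries compared with an adjusted p of 0.00688. Rbpj was at 11.7, 8.11, 10.4 and 10.3 CPM at E9.5 and 15.6, 20.4 and 18.9 CPM at E11, with a log2 difference of 0.85 (SE 0.394, edgeR adjusted p = 0.364). Lfng rested on 0 to 6 counts a library at E9.5 and 22 to 43 counts at E11, with an edgeR adjusted p of 0.292. Hey1, Hey2, Heyl, Hes1, Hes6, Nrarp and Rfng had edgeR adjusted p-values from 0.347 to 0.955.

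**Figure D3:**
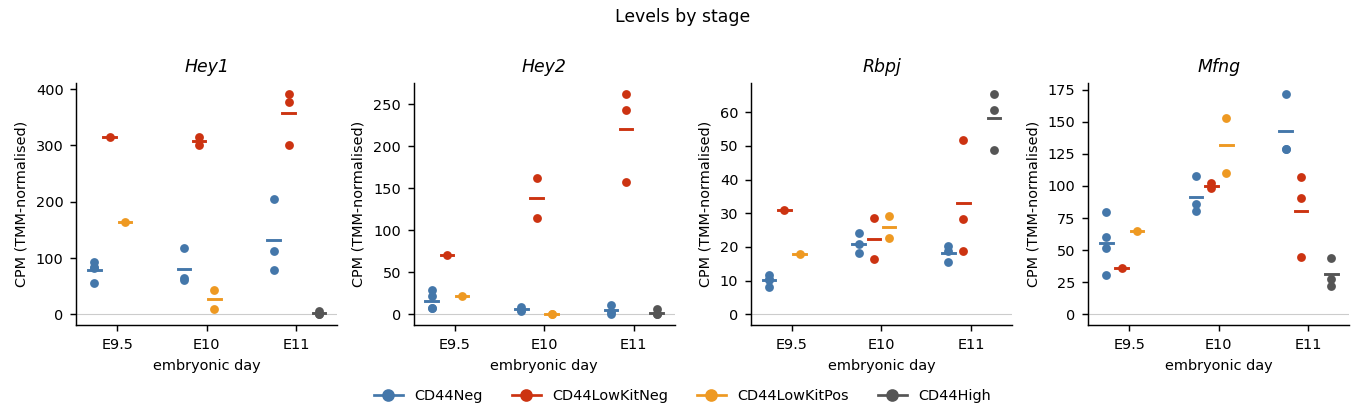
TMM-normalised CPM of Hey1, Hey2, Rbpj and Mfng by embryonic day, with a point for each library and a bar at the mean of each population. Hey2 means in CD44LowKitNeg are 71.0, 138 and 221 CPM at E9.5, E10 and E11, those in CD44Neg 16.5, 6.07 and 4.74 CPM, and Mfng in CD44Neg has means of 55.5, 91.3 and 143 CPM.

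The next comparison set CD44LowKitPos cells, which carry Kit and blood markers, against CD44LowKitNeg cells. None of the 10 members was called over all libraries, where 4.26% of 12949 genes were called (330 higher and 222 lower) and 27.2% passed an unadjusted edgeR p of 0.05. By that unadjusted p, 5 members passed, Hey1, Hey2, Heyl, Hes1 and Hes6, while DESeq2 called 1 member, Hey1, beside 10.8% of all genes, and limma voom called 2, Hey1 and Hey2, beside 9.61% of all genes. Under the size factors of DESeq2 in the same test, the genes called were 218 higher and 273 lower, and the median of all genes moved by −0.134 on the log2 scale. Hey1, Hey2 and Nrarp lay below in all 3 CD44LowKitPos libraries, as did 7.35% of all genes.

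Hey1 was at 9.92 and 43.2 CPM in the E10 libraries of CD44LowKitPos and at 164 CPM in the E9.5 library, replicate 19. The log2 difference from CD44LowKitNeg was −2.20 (SE 0.679, edgeR adjusted p = 0.0345). Hey2 was at 0 in both E10 libraries and at 22.0 CPM in replicate 19, a log2 difference of −4.52 (SE 1.40, edgeR adjusted p = 0.0354). Replicate 19 also had the highest Nrarp of the population, 24.4 CPM against 8.37 and 8.53 CPM. Its summed endothelial markers were 1850 CPM against 765 and 1160 CPM, and its summed blood markers 411 CPM against 785 and 807 CPM, and their part in the result was not tested. Without replicate 19, Hey1 and Hey2 were both called lower (edgeR adjusted p = 0.00335 and 0.00102), with a log2 difference of −3.67 for Hey1.

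Within E10, with 2 libraries a side, Hey2 was called lower in CD44LowKitPos (edgeR adjusted p = 0.00213), the 1 call among 9 members tested where 2.22% of all genes were called and 1.81% were called lower. Both CD44LowKitPos libraries had no counts, which allows up to 0.4 and 0.465 CPM, against 162 and 114 CPM in CD44LowKitNeg. The mean Hey2 level of 138 CPM in CD44LowKitNeg was 320-fold the mean floor of 3 counts in the CD44LowKitPos libraries. That ratio covers counting error only and not the spread between libraries. The call was lost without CD44LowKitPos replicate 17 (edgeR adjusted p = 0.0452) or 18 (edgeR adjusted p = 0.027), each of which leaves a lone library that is assumed to vary like the other groups. It was also lost in an edgeR fit of only the 4 libraries compared (adjusted p = 0.0131). Hey1 at E10 was lower by 11.5-fold, just outside the threshold (edgeR adjusted p = 0.0111), and DESeq2 called it (adjusted p = 5.84e-05). Its log2 difference of −3.53 became −2.86 without CD44LowKitPos replicate 17 (edgeR adjusted p = 0.188) and −5.00 without replicate 18 (edgeR adjusted p = 0.0134). Hes1, Nrarp, Rbpj and the 3 fringe genes had edgeR adjusted p-values from 0.332 to 0.897 at E10, and Heyl had no counts.

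Hes6 had its highest level in CD44LowKitPos, at 90.0, 54.7 and 39.5 CPM. Its log2 difference from CD44LowKitNeg was 1.28 (SE 0.423, edgeR adjusted p = 0.0474) and from CD44Neg 1.25 (SE 0.381, edgeR adjusted p = 0.0453), neither of which passed the threshold, and the ranges overlapped in both. Within E10 the CD44LowKitPos libraries (90.0 and 54.7 CPM) lay above the CD44LowKitNeg libraries (18.6 and 13.9 CPM), as 27.4% of all genes did, with an edgeR adjusted p of 0.0465.

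Hes1 was at 20.3, 51.3 and 36.6 CPM in CD44LowKitPos, with a log2 difference of −1.29 from CD44LowKitNeg (SE 0.525, edgeR adjusted p = 0.108). Rbpj was at 22.6, 29.3 and 17.9 CPM, within the range of CD44LowKitNeg. Mfng was at 153, 110 and 64.9 CPM and Rfng at 25.6, 17.3 and 10.4 CPM, both overlapping CD44LowKitNeg. Heyl had no counts in the 3 CD44LowKitPos libraries, and Lfng had 12, 5 and 3 counts. Against CD44Neg, no member was called in CD44LowKitPos, with 3.48% of all genes called and 20.3% at an unadjusted edgeR p under 0.05. In that comparison 2 members, Hes1 and Hes6, passed the unadjusted threshold. The DESeq2 Wald test and limma voom called 0 members, beside 6.82% and 5.63% of all genes. The edgeR adjusted p-value of Hes1 was 0.232, and those of Hey1, Hey2, Heyl, Nrarp, Rbpj and the 3 fringe genes ranged from 0.387 to 0.897.

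**Figure D4:**
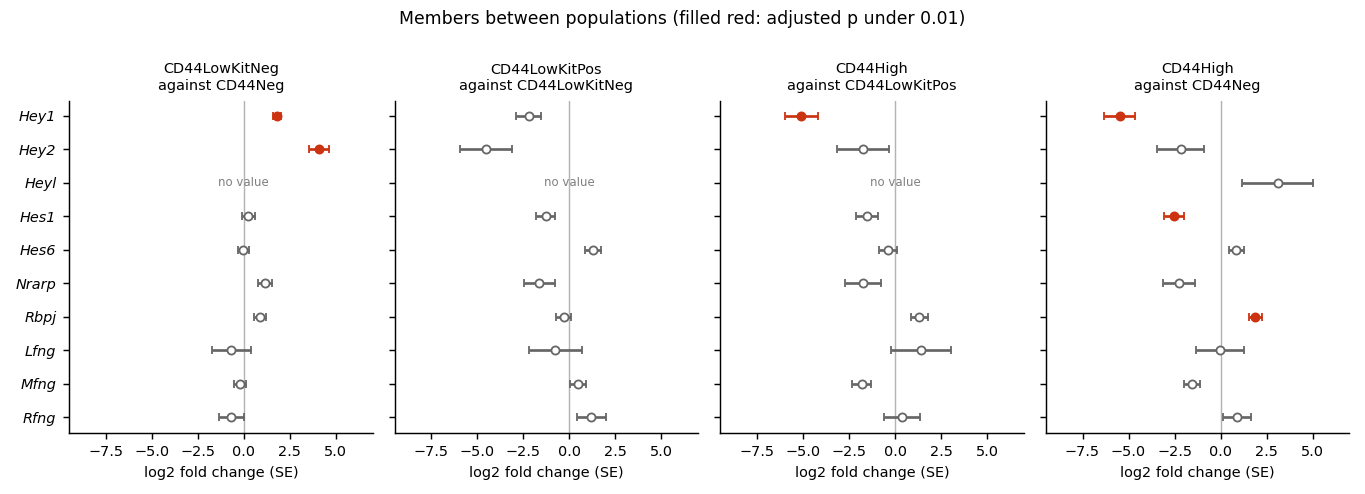
Log2 fold change with its standard error (horizontal axis) for the 10 members in 4 comparisons of populations, filled red where the edgeR adjusted p was under 0.01. Heyl has no value where it was not tested or where a population had no counts. Hey1 is called against CD44Neg in CD44LowKitNeg, in CD44High against CD44LowKitPos and in CD44High against CD44Neg, at 1.81, −5.09 and −5.49, and Rbpj is the only member called higher in CD44High, at 1.89.

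CD44High cells held almost no Hey1 or Hey2 RNA. Their mean Rbpj level was the highest of the populations, but it was called against CD44Neg only. Hey1 had 28, 1 and 0 counts in the 3 CD44High libraries, or 5.47, 0.266 and 0 CPM. Hey2 had 31 counts in replicate 20 and 0 in the others, which puts it at 6.06, 0 and 0 CPM. Hes1 was at 14.7, 16.8 and 6.51 CPM, below every library of the other 3 populations. Each comparison with CD44High sets a population with macrophage marker sums of 1680 to 4560 CPM against populations at no more than 52.9 CPM, and the part of those cells in the results was not tested.

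Against CD44LowKitPos, 1 of 10 members was called, Hey1, which was lower by 5.09 on the log2 scale (SE 0.887, edgeR adjusted p = 0.000505), where 3.01% of all genes were called and 2.23% were called lower. Without CD44LowKitPos replicate 19 its difference was −3.65, and without CD44High replicate 20 it was −8.97, and it was called in both. The value of −8.97 rests on 1 Hey1 count in CD44High replicate 21. The limma voom fit did not call Hey1 (adjusted p = 0.0388). Mfng also lay below in all CD44High libraries, at 22.1, 43.9 and 27.9 CPM (edgeR adjusted p = 0.0362), as did Hes1 (edgeR adjusted p = 0.159). Those 3 genes compare with 12.1% of all genes that lay below. Rbpj lay above, as did 11.8% of all genes, with a log2 difference of 1.33 (SE 0.470, edgeR adjusted p = 0.104). Hey2, Heyl, Hes6, Nrarp, Lfng and Rfng had edgeR adjusted p-values from 0.246 to 0.923. Mfng was called with stage as a covariate (edgeR adjusted p = 0.00199) and Nrarp without CD44High replicate 21 (edgeR adjusted p = 0.00184). CD44High and CD44LowKitPos share no stage, so the effect of E11 in the covariate fit comes from CD44Neg and CD44LowKitNeg. The Mfng call therefore does not separate population from stage.

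Against CD44LowKitNeg, 3 of 10 members were called, all lower, where 16% of all genes were called and 8.17% were called lower. Hey1 was lower by 7.29 on the log2 scale (SE 0.937, edgeR adjusted p = 3.48e-06). Hey2 was lower by 6.25 (SE 1.58, edgeR adjusted p = 0.00452), a call that was lost without CD44High replicate 21 (edgeR adjusted p = 0.0254) or 22 (edgeR adjusted p = 0.0272). Without replicate 20, which holds nearly all of the Hey1 and Hey2 counts of CD44High, the 2 differences grew to −11.18 and −12.98 on the log2 scale. The first then rests on 1 count in replicate 21, and the second, against no counts, depends on the prior count and is no bound. Hes1 was lower by 2.79 (SE 0.579, edgeR adjusted p = 0.000856), and limma voom did not call it (adjusted p = 0.0373). Nrarp was at 0.391, 12 and 0 CPM in CD44High, below every CD44LowKitNeg library as were Hey1, Hey2 and Hes1 (11.7% of all genes were), and just missed the threshold (edgeR adjusted p = 0.0106). It was called in 4 of 6 other settings: both DESeq2 settings, limma voom and stage as a covariate. Leaving out CD44High replicate 21, the 1 library with more than 2 Nrarp counts, gave an edgeR adjusted p of 5.66e-05. Mfng (edgeR adjusted p = 0.0331), Hes6 (0.127), Lfng (0.775) and Heyl (0.837) were not called. Mfng was called by DESeq2 (adjusted p = 0.00841) and with stage as a covariate (edgeR adjusted p = 0.00188).

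Within E11, where stage is held constant, 4 of 10 members were called lower in CD44High than in CD44LowKitNeg, against 8.81% of all genes called lower and 19.5% called in either direction. The log2 differences were −7.37 for Hey1 (SE 0.813), −6.63 for Hey2 (SE 1.20), −2.95 for Hes1 (SE 0.662) and −1.36 for Mfng (SE 0.363), with edgeR adjusted p-values of 1.42e-06, 0.000353, 0.00209 and 0.0073. Without CD44High replicate 20, Hey1 and Hey2 were at −11.28 and −13.37 and still called. The first value rests on 1 count in replicate 21, and the second is against no counts and is no bound. The call of Hes1 was lost without CD44High replicate 22 (edgeR adjusted p = 0.0107). That of Mfng was lost without CD44High replicate 20 (0.026) or 22 (0.0205), or CD44LowKitNeg replicate 11 (0.0335) or 13 (0.0202), and in an edgeR fit of only the libraries compared (0.0451). Without CD44High replicate 22, 2 members remained called, Hey1 and Hey2. Nrarp (edgeR adjusted p = 0.0169) was not called, but it was by DESeq2 (adjusted p = 0.00108) and without CD44High replicate 21 (edgeR adjusted p = 0.000117). Not called either were Rfng, Rbpj, Hes6, Lfng and Heyl (edgeR adjusted p-values from 0.117 to 0.979).

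Against CD44Neg, Rbpj was called higher in CD44High by 3.70-fold, a log2 difference of 1.89 (SE 0.341, edgeR adjusted p = 0.000208). Its CD44High libraries were at 60.8, 65.4 and 48.8 CPM, all above the highest CD44Neg library at 24.1 CPM, where 9.55% of all genes lay above. The call held in each of 13 fits without 1 library and in each of 6 other settings. Hey1 and Hes1 were called lower, with log2 differences of −5.49 (SE 0.856, edgeR adjusted p = 3.73e-05) and −2.55 (SE 0.555, edgeR adjusted p = 0.00136), and both lay below every CD44Neg library, as did 9.14% of all genes. The call of Hes1 was lost without CD44High replicate 22 (edgeR adjusted p = 0.0129) and with limma voom (adjusted p = 0.0892). The difference of Hey1 was −9.33 without replicate 20, a value that rests on 1 count in replicate 21. These 3 calls among 10 members stand beside 14.4% of all genes, with 7.14% higher and 7.25% lower. Mfng was not called, with a log2 difference of −1.56 (SE 0.449, edgeR adjusted p = 0.0129), but it was without CD44Neg replicate 6 (edgeR adjusted p = 0.00442) or 7 (edgeR adjusted p = 0.00991), by DESeq2 (adjusted p = 0.00192) and in edgeR with stage as a covariate (adjusted p = 0.000238). Nrarp was not called either (edgeR adjusted p = 0.0673), and was without CD44High replicate 21 (edgeR adjusted p = 0.000205). The count of members called was thus 2 to 4 over the fits without 1 library and over the other settings. In the fits without 1 library, 9.95% to 14.4% of all genes were called. In the other settings at the threshold of 0.01, the share was lowest without the filter on low counts (1842 of 17571 genes). It was highest with the DESeq2 Wald test (18.5%). Hey2, Heyl, Hes6, Lfng and Rfng were not called, with edgeR adjusted p-values from 0.12 to 0.99. Against CD44LowKitNeg the Rbpj ranges overlapped, since CD44LowKitNeg replicate 13 was at 51.9 CPM, and the log2 difference was 1.01 (SE 0.388, edgeR adjusted p = 0.0566), which limma voom called (adjusted p = 0.00903).

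Mfng had its lowest population mean there, 31.3 ± 11.3 CPM (SD, n = 3), while Rfng had its highest, 23.1 ± 9.83 CPM, at 16.8, 18.1 and 34.4 CPM. Rfng lay above all CD44LowKitNeg libraries (0 to 16.4 CPM), as did 13.5% of all genes, and was not called (log2 difference 1.58, SE 0.803, edgeR adjusted p = 0.152). Lfng stayed at 0.782, 1.86 and 5.42 CPM. Hes6 was at 19.9, 71.5 and 49.1 CPM, overlapping every other population.

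Replicate 20 of CD44High stood apart in several low members. It held 28 of the Hey1 counts, all 31 of the Hey2 counts and 50 of the Heyl counts of the population, with 14 Heyl counts in replicate 21 and 0 in replicate 22. Its summed endothelial markers were 14.1 CPM, the lowest of the 3, while its summed mural markers were 817 CPM, against 596 CPM in replicate 21 and 0 in replicate 22. Its summed mesenchyme markers were 229 CPM, against 133 and 0.271 CPM. Heyl is known for its expression in vascular smooth muscle, and the part of such cells in these counts was not tested.

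**Figure D5:**
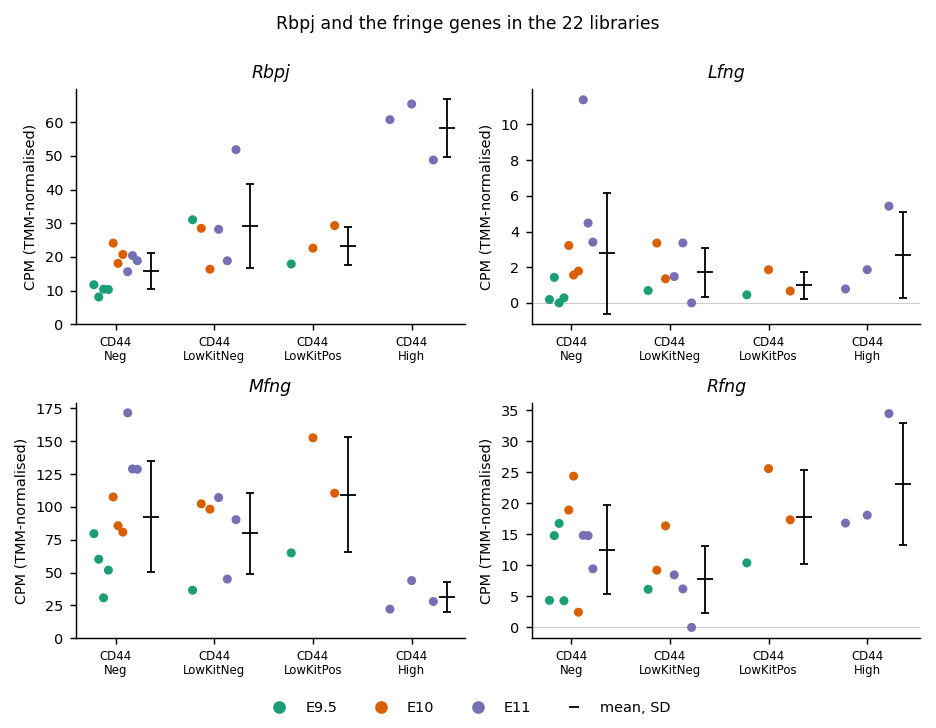
TMM-normalised CPM (vertical axis, one scale for each gene) of Rbpj and the fringe genes in the 22 libraries by population, with points coloured by embryonic day and black marks for the mean and SD. The 3 CD44High libraries lie at 48.8 to 65.4 CPM for Rbpj, above all CD44Neg libraries, and at 22.1 to 43.9 CPM for Mfng, below all CD44LowKitPos libraries. Lfng stays at or under 11.4 CPM throughout.

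Of the 65 other Notch pathway genes, 56 passed the filter over 22 libraries. In CD44High against CD44LowKitNeg, 2 of them were called higher and 11 lower, where 7.79% and 8.17% of all genes were, and against CD44Neg 2 were called higher and 8 lower, where 7.14% and 7.25% of all genes were. In CD44LowKitPos against CD44LowKitNeg, 1 was called lower and 0 higher, and at an unadjusted edgeR p under 0.05 these were 20 and 2, beside 4.26% of all genes called and 27.2% at the unadjusted p. In CD44LowKitPos against CD44Neg 0 were called, with 12 lower and 2 higher at that unadjusted p, beside 3.48% and 20.3% of all genes. In CD44High against CD44LowKitPos, 2 were called lower and 0 higher, with 10 lower and 5 higher at the unadjusted p, beside 3.01% and 17.8% of all genes.

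The genes whose levels most resembled each member over the 22 libraries were found among 12948 genes by Pearson's r of log2 CPM, as a description, since the libraries share populations and stages and differ in depth. Hey1 was closest to Tspan6 (r = 0.97), Igfbp2 (r = 0.967) and Tjp1 (r = 0.962). Hey2 was closest to Gata6 (r = 0.953), Isl1 (r = 0.906), both of which encode transcription factors, and Ssfa2 (r = 0.898). Nrarp was closest to Mmp14 (r = 0.917), F2r (r = 0.895) and Amigo2 (r = 0.888). Hes1 was closest to Sptbn1 (r = 0.877), Card10 (r = 0.862) and Hid1 (r = 0.851).

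The remaining members had weaker partners. Rbpj was closest to Fos and Glrx (both r = 0.836) and Serinc3 (r = 0.804). Mfng was closest to Pla2g6 (r = 0.839), Zscan18 (r = 0.832) and Jam3 (r = 0.825), and Rfng to Kat7 (r = 0.839), Chd1l (r = 0.835) and Trmt2a (r = 0.826). Hes6 was closest to Dkkl1 (r = 0.767), Cd200r3 (r = 0.752) and Tnip3 (r = 0.748). The closest genes to Lfng (Sppl2b, Scarb1 and Tnfrsf1a, r = 0.74 to 0.779) and Heyl (St6galnac2, Pknox2 and Ephx2, r = 0.761 to 0.777) rest on few counts. No member was among the 3 closest genes of another.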

How the data were processed

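Single libraries of 25 sorted cells were sequenced by the Smart-seq2 protocol. The authors clipped adaptors with FASTX, aligned with RNA STAR and counted reads per gene with htseq-count on mm10, and deposited raw counts for 24454 gene symbols. The submitters' processing notes also name FastQC. The annotation, the strand setting and the tool versions are not given in the sources used here.

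Libraries were grouped by the population and stage in their labels. Genes were kept by filterByExpr (at least 10 counts in enough libraries and 15 in all), scaled by TMM and tested with the quasi-likelihood F test of edgeR 4.0.16 in R 4.3.3. CD44LowKitNeg and CD44Neg were fitted on their 16 libraries, other populations on all 22, and stages as population-by-stage groups of all 22. The Benjamini-Hochberg adjustment ran over all genes of a fit in each of 12 comparisons, with calls at adjusted p-values under 0.01 (two-sided). Fold changes carry a prior count of 0.125. Alternatives were DESeq2 1.42.0 (size factors and Wald test), limma 3.58.1 voom, no filter, stage as a covariate, a threshold of 0.05, Rn45s left out, other sets of libraries in the fit, and each library left out in turn. The scripts were tested on simulated data. CPM per kb used exon lengths from GENCODE vM21. Correlations used log2 CPM with a prior count of 2. All 10 members are named in every comparison. The other pathway genes named are those called in CD44LowKitNeg against CD44Neg, at most 5 in each direction, and the 3 genes closest to each member are named by Pearson's r. The members and lists were chosen with earlier results of these data known. The lists of erythroid, mesenchyme, mural and neural markers were summed like the others.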

Additional observations from a re-analysis of the deposited data

Results flagged for a closer look

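In each population with 4 or more libraries, the highest and lowest library of each member were compared with the rest. In 3 of 20 groups a library lay far from the others by Dixon's 95% criterion. Its chance rate of about 1 of 20 holds for normal values of a single group. Here CPM of pooled stages were used, so the 3 flags are not read as an excess. All 3 are CD44Neg libraries at E11. Hey1 was at 204 CPM in replicate 3, where the next library was at 117 CPM, a gap of 0.584 of the range. Heyl was at 5.05 CPM in replicate 2 and at 0 in the other libraries, a gap of 1. A gene with counts in 1 library only must meet the criterion, so the chance rate does not apply to Heyl. Lfng was at 11.4 CPM in replicate 1, where the next was at 4.47 CPM, a gap of 0.607.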

How the results depend on the processing

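No paired analysis was possible because each library carries its own replicate number. Of the member fold changes, 497 kept their direction and their side of the threshold under other settings, 18 moved past the threshold, 5 lost it and 10 changed sign. With 1 library left out these numbers were 950, 8, 14 and 40. The 2 calls in CD44LowKitNeg against CD44Neg held in every setting and every fit without 1 library. The cause of the changes below was not tested.

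At an adjusted p under 0.05 the members called numbered 3 in CD44LowKitPos against CD44LowKitNeg and 3 in the same comparison at E10, 1 in CD44LowKitPos against CD44Neg, 2 in CD44High against CD44LowKitPos, 5 in CD44High against CD44LowKitNeg and 1 in CD44LowKitNeg against CD44Neg at E10. At that threshold 12.5%, 6.12%, 7.27%, 6.05%, 26.8% and 2.82% of all genes were called, in the same order. The counts also rose to 3 in CD44LowKitNeg against CD44Neg, 4 in CD44High against CD44Neg and 5 in CD44High against CD44LowKitNeg at E11, where 20.1%, 22.5% and 30.5% of all genes were called. The DESeq2 Wald test called 1 in CD44LowKitPos against CD44LowKitNeg (10.8% of all genes), 2 in the same at E10 (7.6%), 5 in CD44High against CD44LowKitNeg (21.9%) and 1 in CD44Neg at E11 against E9.5 (1.68%). With limma voom these were 2 in CD44LowKitPos against CD44LowKitNeg (9.61%) and 0 in CD44High against CD44LowKitPos (3.75%). With stage as a covariate 2 members were called in CD44High against CD44LowKitPos (2.73%) and 5 in CD44High against CD44LowKitNeg (19.5%). The populations of the former comparison share no stage. A fit of only the libraries compared called 0 in CD44LowKitPos against CD44LowKitNeg at E10, where it called 8 of 11205 genes (0.0714%), and 1 in CD44Neg at E11 against E9.5 (2.54%).

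The number of all genes called also moved by over 1.5 times in comparisons whose count of members kept within that range. The DESeq2 Wald test called 1746 against 1121 in CD44LowKitNeg against CD44Neg, 990 against 471 in the same at E11, 510 against 31 at E10, 829 against 451 in CD44LowKitPos against CD44Neg, 716 against 390 in CD44High against CD44LowKitPos, and 56 against 1 for the difference of E11 from E10. In CD44High against CD44LowKitNeg at E11 a fit of only the libraries compared called 1160 against 2519, and in CD44LowKitNeg against CD44Neg at E10 it called 1 against 31. In CD44LowKitPos against CD44Neg limma voom called 729 against 451, and in CD44LowKitPos against CD44LowKitNeg stage as a covariate gave 366 against 552. Without 1 library, the share of all genes called fell as low as 1.17% in CD44LowKitPos against CD44Neg (3.48% in the main fit). It fell as low as 9.87% (16%) in CD44High against CD44LowKitNeg and 0.0155% (0.239%) in CD44LowKitNeg against CD44Neg at E10. In CD44Neg at E11 against E9.5 it fell to 0% (0.0463%), and for the difference of E11 from E10 it rose to 0.0623% (0.00772%).

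The 10 changes of sign were all in members that were not called. In CD44LowKitNeg against CD44Neg, the log2 fold change of Hes6 was 0.04 with the size factors and the Wald test of DESeq2, 0.015 without the filter and 0.034 without Rn45s, and at E11 it was 0.022 with both DESeq2 settings. With limma voom Hey2 was at 0.019 in CD44High against CD44LowKitPos and Lfng at 0.609 in CD44High against CD44Neg. With stage as a covariate Heyl was at 0.499 in CD44LowKitPos against CD44Neg and Lfng at −0.122 in CD44High against CD44LowKitNeg.

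Without 1 library, the members called ranged from 0 to 2 in CD44LowKitPos against CD44LowKitNeg (2 without CD44LowKitPos replicate 19) and from 1 to 2 in CD44High against CD44LowKitPos (2 without CD44High replicate 21), while 0.48% to 5.33% and 1.86% to 2.9% of all genes were called. They ranged from 0 to 1 in CD44LowKitNeg against CD44Neg at E11 (0 without CD44Neg replicate 1 or 2 or CD44LowKitNeg replicate 11 or 13), from 2 to 5 in CD44High against CD44LowKitNeg at E11 (2 without CD44High replicate 22) and from 0 to 1 in CD44LowKitPos against CD44LowKitNeg at E10 (0 without CD44LowKitPos replicate 17 or 18), while 1.51% to 2.61%, 13.9% to 16% and 0.613% to 1.73% of all genes were called.

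Log2 fold changes that crossed 0 without 1 library are given as ranges. Values against a group with no counts depend on the prior count and are no bounds. In CD44LowKitNeg against CD44Neg, Hes6 ranged from −0.2 to 0.104, and from −0.272 to 0.211 at E11. At E10 the ranges were −1.049 to 0.423 for Hes1, −0.284 to 0.474 for Rbpj, −0.611 to 0.644 for Lfng and −0.755 to 0.292 for Rfng. The difference of E11 from E10 ranged from −0.063 to 1.436 for Hes1 and from −0.459 to 0.028 for Nrarp. In CD44LowKitPos against CD44Neg, Hey1 ranged from −1.841 to 0.116, Hey2 from −8.826 to 0.155 and Mfng from −0.077 to 0.499. In CD44LowKitPos against CD44LowKitNeg at E10, Rbpj ranged from −0.175 to 0.576. In CD44High, Lfng ranged from −1.096 to 0.528 against CD44Neg, Heyl from −0.59 to 1.62 and Lfng from −0.45 to 0.955 against CD44LowKitNeg, and Heyl from −1.585 to 0.321 and Lfng from −0.378 to 1.779 against the same at E11. Against CD44LowKitPos, Hey2 ranged from −8.465 to 6.673 and Rfng from −0.055 to 0.72. In CD44Neg at E11 against E9.5, Hes1 ranged from −0.313 to 0.93.

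Depth limits Heyl and Lfng, with at most 64 and 43 counts in a library, and Hey1, Hey2 and Nrarp in CD44High. The contrasts within or between stages rest on 2 to 4 libraries a group.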
